A study of Arabidopsis thaliana with 24 samples.

Results

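BRUTUS (BTS), its paralogs BTS-LIKE1 (BTSL1) and BTS-LIKE2 (BTSL2), and the IRON MAN peptide genes IMA1, IMA2 and IMA3 were followed through the roots of Arabidopsis seedlings exposed to phosphate (Pi) depletion, low pH, aluminum (Al) and iron (Fe) excess. These 6 genes were chosen by locus (AT3G18290, AT1G74770, AT1G18910, AT1G47400, AT1G47395 and AT2G30766) from the 20450 genes with deposited RNA-seq values, and each of the 6 was measured. Seedlings of the stop1 mutant and of wild-type (Col-0 ecotype) were moved 5 days after germination into liquid medium for 16 h. The ++Fe medium held 0.1 mM Pi and 0.1 mM added FeSO4 at pH 5, the +Al medium 0 mM Pi and, per the labels, 100 µM AlCl3 at pH 5 (the study's methods give another concentration), the -Pi_pH5 medium 0 mM Pi at pH 5, the +Pi_pH5 medium 1 mM Pi at pH 5, the -Pi_pH6 medium 0 mM Pi at pH 6 and the +Pi_pH6 medium, the control, 1 mM Pi at pH 6. For its control and low-Pi media the study states a lower, basal Fe supply, so these media were not free of iron. Each of the 12 combinations of genotype and medium had 2 biological replicates, each a pool of root tip sections from many seedlings, and 24 libraries in all. The stop1 plants are a T-DNA line of Col-0 and carry a single mutant allele of STOP1, a zinc finger transcription factor of acid and Al tolerance.

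BTS, BTSL1 and BTSL2 are E3 ubiquitin ligases with hemerythrin-like domains that bind iron, and with a RING domain that marks target proteins for degradation. BTS acts mostly in the stele and in embryos on bHLH transcription factors of subgroup IVc, while BTSL1 and BTSL2 act in the outer layers of the root on FIT, the regulator of iron uptake, and on subgroup IVc factors. IMA peptides are short, phloem-expressed peptides that are made under iron deficiency and that bind the ligases through their conserved C-terminal end, so that the bHLH factors persist and the uptake genes IRT1 and FRO2 are switched on. The genes of the ligases and of the peptides are themselves activated when iron is scarce.

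The C-terminal end of the peptides is the stretch through which they bind the ligases, and the genomic bases that encode it are shown to compare the members. These are the last 30 coding bases before the stop codon, 5′ to 3′, on the plus strand of the RefSeq assembly TAIR10.1, and capitals mark the 19 of 30 bases that all 3 genes share. The IMA1 bases lie at chr1:17385938-17385967, the IMA2 bases at chr1:17383237-17383266 and the IMA3 bases at chr2:13108179-13108208.
IMA1: GACagTGgCTaTGAttaTGCtCCtGCtGCg
IMA2: GACagTGgCTaTGAttaTGCtCCtGCtGCg
IMA3: GACgaTGaCTgTGAcgtTGCaCCgGCgGCt
IMA1 and IMA2 are identical over this stretch. Over the whole coding sequence IMA1 and IMA2 share 88.9% of aligned bases, against 53.5% for IMA1 and IMA3 and 51.6% for IMA2 and IMA3. Their proteins have 50, 50 and 47 residues and share 82%, 34% and 31.5% of aligned residues in the same order of pairs. IMA2 (chr1:17382998-17383830) and IMA1 (chr1:17385707-17386485) are single-exon genes on the plus strand, 1876 bases apart. Of their 50-base stretches, 10 in each gene (1.37% in IMA1 and 1.28% in IMA2) also occur elsewhere in the genome, so that reads can be shared between them only over a small part. IMA3 (chr2:13107583-13110480, plus strand) has 2 exon blocks.

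Among the ligases, BTS (chr3:6273966-6280562, plus strand, 14 exon blocks) encodes 1254 residues, BTSL1 (chr1:28089172-28094956, minus strand, 11 exon blocks) 1259 residues and BTSL2 (chr1:6532559-6538145, minus strand, 12 exon blocks) 1254 residues. BTSL1 and BTSL2 share 69% of aligned residues, and BTS shares 36% with BTSL1 and 35.6% with BTSL2. BTS differed from the others also in its promoter. In the 300 bases from 250 before to 50 after its annotated start it holds 3 copies of the G-box, a bHLH-binding motif whose letters, CACGTG, read the same on both strands, while none of the other 5 genes holds this motif in that window. The G-box occurs in 8.48% of the 20413 promoters examined. The copies are shown on the plus strand of TAIR10.1 with 12 bases on either side and the motif in capitals, at chr3:6273808-6273837, chr3:6273830-6273859 and chr3:6273884-6273913, with the first motif base at positions -146, -124 and -70 from the start.
BTS G-box at -146: gtaagacgcttgCACGTGtcgagatgtaat
BTS G-box at -124: gatgtaatcggtCACGTGccaacctgggtt
BTS G-box at -70: gatgtgaatggcCACGTGctacaaaaccta

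Reads on genes ranged from 17027929 to 30516150 per library, so that 1 read was worth 0.0326 to 0.0572 CPM, the normalised read count in which all levels are given. STOP1 itself was at 28.8 to 57.8 CPM in stop1 libraries and at 108 to 177 CPM in wild-type libraries, without overlap. Gene lists that the study heads stop1 +Pi_pH6 and stop1 +Pi_pH5 match each other's libraries, and the labels were kept as deposited, with their exchange run as an alternative. The summed level of 3 root tip markers was 23.8 to 34.2 CPM in every library. The summed level of 10 leaf markers (photosynthesis genes) was 18.4 to 81.3 CPM in 19 libraries, with 0 to 5 of the 10 markers at 0, and 187 to 1258 CPM in the other 5, which are stop1 +Pi_pH6 replicate 1, stop1 +Pi_pH5 replicate 1, wild-type +Al replicate 1, wild-type +Pi_pH5 replicate 2 and wild-type +Pi_pH6 replicate 1. Results that rest on these 5 libraries are also given without them. Fewer cells of a type and less RNA per cell cannot be told apart in these bulk samples.

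Averaged over the 24 libraries and per kilobase of exon, BTSL1 was the most abundant member at 21.7 CPM per kb, followed by BTSL2 at 12.4, BTS at 12, IMA2 at 5.07, IMA1 at 4.09 and IMA3 at 0.451 CPM per kb. The ligases were thus well covered, while IMA1 and IMA2 were counted with 3 to 25 reads per library in ++Fe and IMA3 with 3 reads or fewer in 9 of the 24 libraries.

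**Figure D1:**
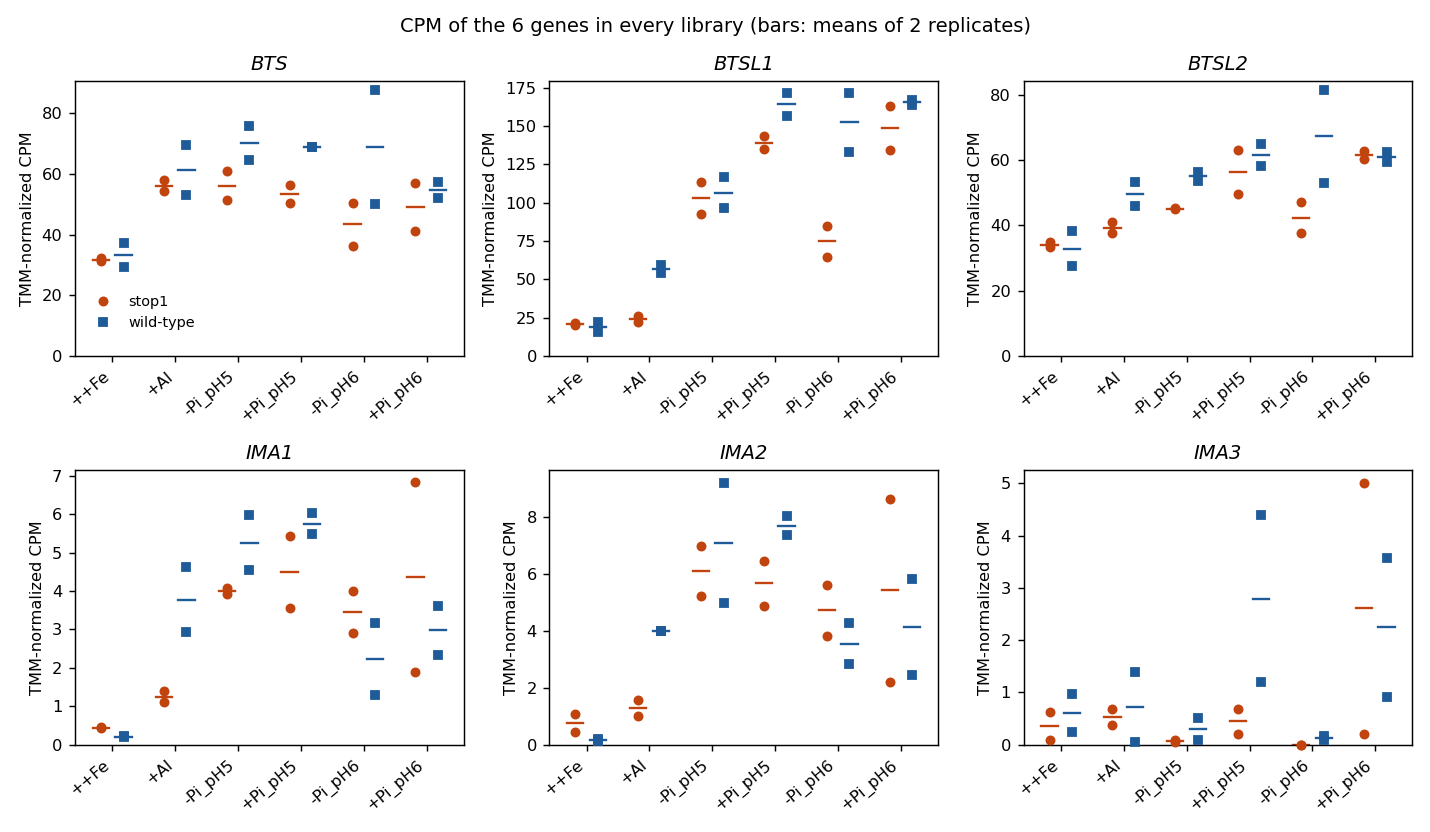
Level of each member in CPM (y axis of each of 6 panels) in every library, by medium (x axis), with stop1 as circles left of wild-type as squares and bars for the mean of the 2 replicates. BTSL1 has its lowest points in ++Fe and in stop1 +Al, IMA1 and IMA2 are at 1.09 CPM or less in every ++Fe library, and IMA3 is above 3 CPM in only 3 libraries.

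In Fe excess 4 of the 6 genes were lower than in the control in stop1 and 5 of the 6 in wild-type. BTSL1 was 7.13-fold lower in stop1 and 8.72-fold lower in wild-type, IMA2 7.06-fold lower in stop1 and 25.1-fold lower in wild-type, IMA1 9.87-fold lower in stop1 and 14.2-fold lower in wild-type, and BTSL2 1.81-fold lower in stop1 and 1.86-fold lower in wild-type, all as ratios of mean CPM of 2 replicates. Called genes were those with a Benjamini-Hochberg adjusted p under 0.05 in limma on log2(CPM + 1), a scale that understates changes of low genes. At this threshold 5.59% of the 20450 genes were lower in stop1 and 9.38% were lower in wild-type. The medium differs from the control in Fe, Pi and pH at once, and their effects cannot be told apart in this comparison.

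BTSL1 had 21.8 and 19.9 CPM in stop1 ++Fe and 22.5 and 15.4 CPM in wild-type ++Fe, against 163 and 135 CPM in stop1 +Pi_pH6 and 167 and 164 CPM in wild-type +Pi_pH6. The groups were far apart in both genotypes. Of all genes, 61.5% in stop1 and 55.9% in wild-type also had no overlap between ++Fe and control libraries. The log2 difference was -2.77 ± 0.18 (SE, limma adjusted p = 2.74e-08) in stop1 and -3.08 ± 0.18 (adjusted p = 9.86e-09) in wild-type.

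BTSL2, the close paralog of BTSL1, changed less. It had 33.4 and 34.7 CPM in stop1 ++Fe and 38.2 and 27.4 CPM in wild-type ++Fe, against 60.4 and 62.9 CPM in stop1 +Pi_pH6 and 62.4 and 59.4 CPM in wild-type +Pi_pH6. No ++Fe library reached a control library of its genotype, and the log2 difference was -0.84 ± 0.18 (limma adjusted p = 0.00358) in stop1 and -0.89 ± 0.18 (adjusted p = 0.00196) in wild-type.

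BTS, the ligase of the stele, had 31.3 and 32.2 CPM in stop1 ++Fe and 37.1 and 29.3 CPM in wild-type ++Fe, against 56.9 and 41.2 CPM in stop1 +Pi_pH6 and 57.4 and 51.9 CPM in wild-type +Pi_pH6. The ++Fe libraries were below the control libraries in both genotypes, but only the wild-type difference was called. A lack of overlap was common, at 61.5% of all genes in stop1 and 55.9% in wild-type. The log2 difference was -0.59 ± 0.22 in stop1 (limma adjusted p = 0.0867) and -0.71 ± 0.22 in wild-type (adjusted p = 0.0306). In wild-type the BTS call was lost without +Pi_pH6 replicate 1 (-0.64, adjusted p = 0.139), without +Pi_pH6 replicate 2 (-0.78, adjusted p = 0.0895) and without ++Fe replicate 2 (-0.54, adjusted p = 0.21), and also without the 5 libraries high in leaf markers (-0.64, adjusted p = 0.166).

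IMA1 and IMA2, the tandem pair of peptide genes, were counted with few reads in ++Fe. IMA1 had 0.436 and 0.448 CPM (10 and 8 reads) in stop1 ++Fe and 0.232 and 0.189 CPM (5 and 4 reads) in wild-type ++Fe, against 6.83 and 1.90 CPM in stop1 +Pi_pH6 and 3.62 and 2.34 CPM in wild-type +Pi_pH6. IMA2 had 1.09 and 0.448 CPM (25 and 8 reads) in stop1 ++Fe and 0.139 and 0.189 CPM (3 and 4 reads) in wild-type ++Fe, against 8.65 and 2.21 CPM in stop1 +Pi_pH6 and 5.81 and 2.44 CPM in wild-type +Pi_pH6. The groups did not overlap for either gene, as for 61.5% of all genes in stop1 and 55.9% in wild-type. The 2 stop1 control replicates lay far apart from each other. Counting error alone leaves the pooled read ratio of IMA2 in stop1 between 4.53-fold and 9.8-fold lower in ++Fe (33 against 200 reads, 95% exact binomial interval), and that of IMA1 between 5.94-fold and 16.8-fold lower (18 against 161 reads). In wild-type the interval was 11.9-fold to 63.6-fold lower for IMA2 (7 against 162 reads) and 7.2-fold to 31.7-fold lower for IMA1 (9 against 117 reads).

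On the log2(CPM + 1) scale the stop1 differences were -1.72 ± 0.36 for IMA1 (limma adjusted p = 0.00261) and -1.68 ± 0.41 for IMA2 (adjusted p = 0.00856). The wild-type differences were -1.70 ± 0.36 for IMA1 (adjusted p = 0.00257) and -2.06 ± 0.41 for IMA2 (adjusted p = 0.00167), and these calls held without any single library of the comparison. In stop1 both rested on +Pi_pH6 replicate 1, which is among the 5 libraries high in leaf markers. Without that library IMA1 differed by -1.01 (adjusted p = 0.0653) and IMA2 by -0.88 (adjusted p = 0.195), and without stop1 ++Fe replicate 2 IMA2 differed by -1.41 (adjusted p = 0.107). Without all 5 libraries the stop1 differences were -1.01 (adjusted p = 0.058) for IMA1 and -0.88 (adjusted p = 0.166) for IMA2. The part of leaf RNA in these results was not tested.

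IMA3, the remaining peptide gene of the 6 genes, was not called in ++Fe. It had 0.0871 and 0.616 CPM (2 and 11 reads) in stop1 ++Fe and 0.973 and 0.237 CPM in wild-type ++Fe, against 5.01 and 0.205 CPM (91 and 4 reads) in stop1 +Pi_pH6 and 3.57 and 0.916 CPM in wild-type +Pi_pH6. The groups overlapped in both genotypes, and the log2 differences of -1.02 ± 0.60 in stop1 (limma adjusted p = 0.303) and -0.92 ± 0.60 in wild-type (adjusted p = 0.295) did not pass the test. The mean CPM was 7.42-fold lower in stop1 and 3.71-fold lower in wild-type.

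Media at the same pH narrow the comparison, since +Pi_pH5 and -Pi_pH5 bracket the Pi supply of ++Fe. Against +Pi_pH5, 5 of the 6 genes were lower in each genotype (background 6.93% of genes in stop1 and 8.31% in wild-type). Against -Pi_pH5, 4 were lower in stop1 (background 4.16%) and 5 in wild-type (background 12.1%). The share of lower genes among all called genes in stop1 ++Fe against +Pi_pH5 was 39.5%, or 52.4% when CPM were scaled by library size only. The comparisons share the ++Fe libraries.

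BTSL1 had 143 and 135 CPM in stop1 +Pi_pH5 and 172 and 157 CPM in wild-type +Pi_pH5, and 114 and 92.5 CPM in stop1 -Pi_pH5 and 117 and 96.4 CPM in wild-type -Pi_pH5, and all of these were above the ++Fe values. Of all genes, 64.3% (stop1) and 56.4% (wild-type) had no overlap between ++Fe and +Pi_pH5. Between ++Fe and -Pi_pH5 it was 60% and 57.8%. Against +Pi_pH5 the log2 difference of BTSL1 in ++Fe was -2.68 ± 0.18 (limma adjusted p = 5.36e-08) in stop1 and -3.07 ± 0.18 (adjusted p = 1.23e-08) in wild-type. Against -Pi_pH5 it was -2.24 (adjusted p = 5.42e-07) in stop1 and -2.45 (adjusted p = 1.18e-07) in wild-type.

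IMA1 had 5.43 and 3.57 CPM in stop1 +Pi_pH5 and 6.02 and 5.48 CPM in wild-type +Pi_pH5, and IMA2 had 6.46 and 4.89 CPM in stop1 +Pi_pH5 and 8.03 and 7.38 CPM in wild-type +Pi_pH5. Relative to these, ++Fe values were 10.2-fold (stop1) and 27.3-fold (wild-type) lower for IMA1 and 7.38-fold (stop1) and 46.9-fold (wild-type) lower for IMA2, in ratios of mean CPM. The log2 differences of IMA1 were -1.91 (limma adjusted p = 0.00118) in stop1 and -2.48 (adjusted p = 0.000114) in wild-type, and those of IMA2 were -1.93 (adjusted p = 0.00313) and -2.90 (adjusted p = 9.39e-05). Against -Pi_pH5, IMA1 differed by -1.79 (adjusted p = 0.00324) in stop1 and -2.36 (adjusted p = 0.00023) in wild-type, and IMA2 by -2.02 (adjusted p = 0.00373, or -1.75 and 0.0575 without stop1 ++Fe replicate 2) in stop1 and -2.75 (adjusted p = 0.000193) in wild-type.

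BTS differed from the pH 5 media in both genotypes. BTS had 50.5 and 56.3 CPM in stop1 +Pi_pH5 and 68.7 and 69.0 CPM in wild-type +Pi_pH5, and 51.3 and 60.9 CPM in stop1 -Pi_pH5 and 64.5 and 75.9 CPM in wild-type -Pi_pH5. In stop1 its differences in ++Fe were -0.73 against +Pi_pH5 (limma adjusted p = 0.031) and -0.80 against -Pi_pH5 (adjusted p = 0.028), and in wild-type they were -1.04 (adjusted p = 0.00362) and -1.06 (adjusted p = 0.00298), a level 2.07-fold and 2.11-fold lower. Neither stop1 difference of BTS was called once any library of the comparison was left out. Without stop1 +Pi_pH5 replicate 1 or 2 or ++Fe replicate 1 or 2 the first was -0.81, -0.65, -0.71 and -0.75 (adjusted p = 0.0745, 0.179, 0.127 and 0.119). Without stop1 -Pi_pH5 replicate 1 or 2 or ++Fe replicate 1 or 2 the second was -0.92, -0.68, -0.78 and -0.82 (adjusted p = 0.0694, 0.191, 0.134 and 0.122). With the labels of stop1 +Pi_pH6 and +Pi_pH5 exchanged, the first was -0.59 (adjusted p = 0.0867), and without the 5 libraries high in leaf markers it was -0.81 (adjusted p = 0.0938).

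BTSL2 had 49.6 and 63.1 CPM in stop1 +Pi_pH5 and 65.0 and 58.3 CPM in wild-type +Pi_pH5, and differed in ++Fe by -0.70 (limma adjusted p = 0.0119) in stop1 and -0.91 (adjusted p = 0.00209) in wild-type. Against -Pi_pH5 (45.2 and 45.0 CPM in stop1, 53.6 and 56.3 CPM in wild-type) BTSL2 differed by -0.40 (adjusted p = 0.183) in stop1 and -0.74 (adjusted p = 0.00729) in wild-type. The stop1 call against +Pi_pH5 was lost without stop1 +Pi_pH5 replicate 2 (-0.53, adjusted p = 0.156), ++Fe replicate 1 (-0.67, adjusted p = 0.0738) or ++Fe replicate 2 (-0.73, adjusted p = 0.0584), and the wild-type call against -Pi_pH5 without ++Fe replicate 2 (-0.51, adjusted p = 0.119). IMA3 was not called in either medium.

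The response to Fe excess was then compared between genotypes. No member was called for the difference of the response between stop1 and wild-type, either against +Pi_pH6 (background 0.0489% of genes in either direction) or against +Pi_pH5 (background 0.0342%). limma gave 0 members at an unadjusted p under 0.05 in both, edgeR's quasi-likelihood test 0 and 1, and its likelihood ratio test and DESeq2 1 each, with 0 called by any of them. The backgrounds are shares at an adjusted p under 0.05 and are no reference for the unadjusted counts. Nor was a member called between stop1 and wild-type within ++Fe (background 1.21%), where limma gave 0 members at an unadjusted p under 0.05 and edgeR's quasi-likelihood test, its likelihood ratio test and DESeq2 gave 1 each. IMA2 was counted with 33 reads in stop1 ++Fe and 7 reads in wild-type ++Fe, a 4.93-fold higher value with a counting interval of 2.15-fold to 13.2-fold, and a log2(CPM + 1) difference of 0.58 ± 0.41 (adjusted p = 0.757).

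**Figure D2:**
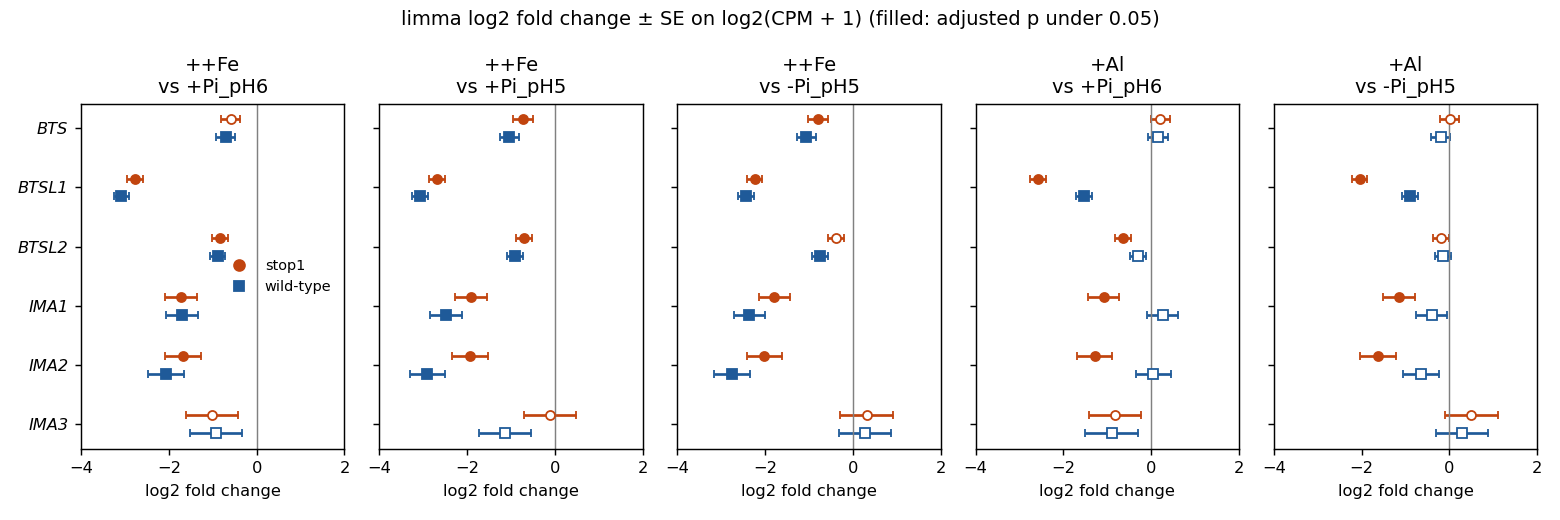
Differences in log2(CPM + 1) of each member in 5 comparisons (x axis, with bars for the standard error and filled points for an adjusted p under 0.05 in limma), with stop1 drawn above wild-type. BTSL1 lies left of 0 in every panel for both genotypes, and in +Al its stop1 point lies further left than its wild-type point, at -2.05 and -0.89 against -Pi_pH5.

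In +Al, BTSL1 was called lower in both genotypes and the IMA1 and IMA2 pair in stop1. For the pair, limma did not call a difference of the response between genotypes. The closest reference for +Al is -Pi_pH5, which has the same pH and Pi and no AlCl3. Against it, 3 members were lower in stop1 (BTSL1, IMA1 and IMA2), where 15.6% of all genes were lower, and 1 was lower in wild-type (BTSL1), where 1.37% were. Against the control, 4 members were lower in stop1 (background 19.4%) and 1 in wild-type (background 4.37%). Among all called genes of wild-type +Al against the control 51.6% were lower, or 40.2% when scaled by library size only.

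BTSL1 had 26.2 and 22.1 CPM in stop1 +Al and 59.4 and 54.0 CPM in wild-type +Al, below the -Pi_pH5 libraries of either genotype. Of all genes, 68.3% in stop1 and 42% in wild-type had no overlap between +Al and -Pi_pH5. The BTSL1 level was 4.27-fold lower than in -Pi_pH5 in stop1 (log2 difference -2.05 ± 0.18, limma adjusted p = 2.27e-07) and 1.88-fold lower in wild-type (-0.89 ± 0.18, adjusted p = 0.00708). Relative to the control it was 6.16-fold lower in stop1 (-2.57, adjusted p = 1.17e-08) and 2.92-fold lower in wild-type (-1.53, adjusted p = 2.63e-05). The wild-type call against -Pi_pH5 was lost without wild-type -Pi_pH5 replicate 1 (-0.76, adjusted p = 0.107) or +Al replicate 2 (-0.82, adjusted p = 0.0822).

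Within +Al, BTSL1 was 2.35-fold lower in stop1 than in wild-type (log2 difference -1.20 ± 0.18, limma adjusted p = 0.000108). The libraries did not overlap, as for 58.8% of all genes. With IMA1, 2 members were called lower in stop1 in this medium, against a background of 8.92%. The response of BTSL1 to Al also differed between genotypes, and it was the only member that limma called for this difference, by -1.15 ± 0.25 against -Pi_pH5 (adjusted p = 0.0092, background 3.77%) and by -1.04 ± 0.25 against the control (adjusted p = 0.0141, background 4.27%). The first was not called without wild-type -Pi_pH5 replicate 2 (-1.02, adjusted p = 0.0503), stop1 -Pi_pH5 replicate 1 (-1.01, adjusted p = 0.0572) or stop1 +Al replicate 2 (-1.04, adjusted p = 0.0517). The second was not called without wild-type +Al replicate 1 (-0.98, adjusted p = 0.0632), stop1 +Pi_pH6 replicate 1 (-0.91, adjusted p = 0.0715) or stop1 +Al replicate 2 (-0.93, adjusted p = 0.0683). Without the 5 libraries high in leaf markers they were -1.09 (adjusted p = 0.108) and -0.85 (adjusted p = 0.401).

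Epidermis markers were also lower in stop1 +Al, and BTSL1 is known from root epidermis and cortex. The summed level of 6 epidermis markers was 76.5 and 87.8 CPM in stop1 +Al and 135 and 218 CPM in wild-type +Al, and 4 of the 6 were lower in stop1 (background 8.92%). The other conditions were between 143 and 265 CPM. Among them the root hair genes COBL9 and RSL4 differed between stop1 +Al and wild-type +Al by -1.09 (limma adjusted p = 0.000714) and -0.93 (adjusted p = 0.00354). Markers of other tissues differed as well. The summed level of 4 endodermis markers averaged 171 CPM in stop1 +Al against 287 CPM in stop1 -Pi_pH5, with 3 of the 4 called lower (background 15.6%). That of 6 phloem markers averaged 172 CPM against 98.0 CPM, with 2 of the 6 called higher (background 15.4%). In wild-type +Al the means were 201 CPM for the endodermis markers and 136 CPM for the phloem markers. BTSL1 was lower in ++Fe than in the control in both genotypes. The epidermis markers averaged 205 CPM in wild-type ++Fe against 159 CPM in its control, and 164 CPM in stop1 ++Fe against 201 CPM in its control. The part of these cell types in the BTSL1 result was not tested. The gene that overlaps 10.5% of the BTSL1 exons on the opposite strand, AT1G74750, moved the other way, with means of 18.8 CPM in stop1 +Al and 10.7 to 14.6 CPM in the other conditions.

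IMA1 and IMA2 were called lower in +Al in stop1 and not in wild-type. IMA1 had 1.1 and 1.41 CPM in stop1 +Al and 4.63 and 2.92 CPM in wild-type +Al, against 4.07 and 3.92 CPM in stop1 -Pi_pH5 and 5.97 and 4.56 CPM in wild-type -Pi_pH5. IMA2 had 1.56 and 1.02 CPM in stop1 +Al and 4.01 and 4.0 CPM in wild-type +Al, against 5.22 and 6.97 CPM in stop1 -Pi_pH5 and 9.21 and 4.99 CPM in wild-type -Pi_pH5. Within stop1 the groups were apart for both genes, as for 68.3% of all genes. In wild-type they overlapped for IMA1 and were apart for IMA2, as for 42% of all genes. The mean CPM of IMA2 was 1.77-fold lower in wild-type +Al than in wild-type -Pi_pH5.

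In stop1 the difference between +Al and -Pi_pH5 was -1.15 ± 0.36 for IMA1 (limma adjusted p = 0.0197), a 3.19-fold lower mean CPM, and -1.63 ± 0.41 for IMA2 (adjusted p = 0.00526), a 4.73-fold lower one. The IMA1 call was lost without stop1 -Pi_pH5 replicate 1 or 2 or stop1 +Al replicate 1 or 2 (-1.13, -1.17, -1.05 and -1.25, adjusted p = 0.088, 0.0715, 0.11 and 0.0576), and the IMA2 call without stop1 +Al replicate 2 (-1.46, adjusted p = 0.0515). In wild-type the same differences were -0.41 ± 0.36 (adjusted p = 0.664) and -0.64 ± 0.41 (adjusted p = 0.499). The difference of this response between genotypes was not called by limma for either gene, at -0.75 ± 0.50 for IMA1 (adjusted p = 0.477) and -0.99 ± 0.58 for IMA2 (adjusted p = 0.397). With the control as reference, limma did not call it for the pair either. There the likelihood ratio test and DESeq2 called 2 members each, against 1 by limma. Relative to the control, the mean CPM of IMA1 was 3.48-fold lower in stop1 +Al and 1.27-fold higher in wild-type +Al. That of IMA2 was 4.21-fold and 1.03-fold lower.

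Within +Al, IMA1 was lower in stop1 than in wild-type by -1.06 ± 0.36 (limma adjusted p = 0.0431), and IMA2 differed by -1.14 ± 0.41 without a call (adjusted p = 0.0586). IMA2 was called by the likelihood ratio test (adjusted p = 0.0214), by DESeq2 (adjusted p = 0.017), with a pseudocount of 0.1 (adjusted p = 0.0403) and with the replicate block (adjusted p = 0.0281). The IMA1 call was lost without wild-type +Al replicate 1 (-0.80, adjusted p = 0.294), which is high in leaf markers, without stop1 +Al replicate 1 (-0.96, adjusted p = 0.204) and without stop1 +Al replicate 2 (-1.16, adjusted p = 0.103), and it was -0.80 (adjusted p = 0.134) without all 5 libraries high in leaf markers. Against the control, stop1 +Al differed by -1.08 ± 0.36 for IMA1 (adjusted p = 0.0234) and -1.29 ± 0.41 for IMA2 (adjusted p = 0.0189). Both calls were lost without stop1 +Pi_pH6 replicate 1 (-0.37 with adjusted p = 0.443 for IMA1, -0.50 with adjusted p = 0.37 for IMA2), while without stop1 +Pi_pH6 replicate 2 the values were -1.80 (adjusted p = 0.000633) and -2.08 (adjusted p = 0.000725). The IMA1 call was also lost without stop1 +Al replicate 1 (-0.98, adjusted p = 0.12) and both without stop1 +Al replicate 2 (-1.18 with adjusted p = 0.0605 for IMA1, -1.12 with adjusted p = 0.117 for IMA2).

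In +Al, limma called BTSL2 only in stop1 against the control, where its mean CPM was 1.57-fold lower, and did not call BTS. Relative to -Pi_pH5 the mean CPM of BTSL2 was 1.15-fold lower in stop1 and 1.11-fold lower in wild-type, without a call. BTSL2 had 37.6 and 41.0 CPM in stop1 +Al and 45.8 and 53.2 CPM in wild-type +Al, and its call against the control in stop1 (-0.64 ± 0.18, limma adjusted p = 0.00995) was lost without stop1 +Pi_pH6 replicate 2 (-0.61, adjusted p = 0.0582) or +Al replicate 1 (-0.58, adjusted p = 0.0718), and without the 5 libraries high in leaf markers (-0.66, adjusted p = 0.0619). BTS had 54.2 and 58.1 CPM in stop1 +Al and 52.9 and 69.5 CPM in wild-type +Al, which overlapped the -Pi_pH5 values in both genotypes. The BTS differences from -Pi_pH5 were 0.01 ± 0.22 in stop1 and -0.20 ± 0.22 in wild-type. Against the control the BTS differences in +Al were 0.21 ± 0.22 in stop1 (adjusted p = 0.496) and 0.15 ± 0.22 in wild-type (adjusted p = 0.79).

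With Pi removed or the pH lowered alone, 1 member was called by limma, BTSL1 in stop1 -Pi_pH6. With Pi removed at pH 6, BTSL1 had 84.8 and 64.6 CPM in stop1 -Pi_pH6 and 133 and 172 CPM in wild-type -Pi_pH6, against the control values above. It was 1.99-fold lower than the control in stop1 (-0.99 ± 0.18, limma adjusted p = 0.00797), the only member called there (background 0.523%), and in wild-type the groups overlapped (-0.13 ± 0.18, adjusted p = 0.904). Within -Pi_pH6, BTSL1 was 2.04-fold lower in stop1 than in wild-type (-1.02, adjusted p = 0.0107), again the only member called (background 0.342%). The difference of the response between genotypes, -0.86 ± 0.25, had an unadjusted p of 0.00333 and was not called. In that test 2 members had an unadjusted p under 0.05 in limma and in edgeR's quasi-likelihood test, 3 in its likelihood ratio test and 2 in DESeq2, with 0 called by any. At an adjusted p under 0.05 limma called 0% of all genes, which is no reference for the unadjusted counts.

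The BTSL1 call against the control was lost without stop1 +Pi_pH6 replicate 1 (-0.85, limma adjusted p = 0.16) or -Pi_pH6 replicate 2 (-0.80, adjusted p = 0.202), and without the 5 libraries high in leaf markers (-0.85, adjusted p = 0.282). The BTSL1 call between genotypes was lost without wild-type -Pi_pH6 replicate 2 (-0.84, adjusted p = 0.3) or stop1 -Pi_pH6 replicate 2 (-0.83, adjusted p = 0.322), and without the 5 libraries (-1.02, adjusted p = 0.0641). BTSL2 and BTS pointed the same way without a call. For each ligase, replicate 2 was the higher wild-type and the lower stop1 library of -Pi_pH6, so the ligases are not separate evidence. The same held for STOP1, at 128 and 177 CPM in wild-type and 36.5 and 28.8 CPM in stop1. BTSL2 had 47.1 and 37.5 CPM in stop1 -Pi_pH6 and 53.1 and 81.5 CPM in wild-type -Pi_pH6, a difference of -0.63 (adjusted p = 0.144). BTS had 50.5 and 36.2 CPM in stop1 -Pi_pH6 and 50.2 and 87.7 CPM in wild-type -Pi_pH6, a difference of -0.62 (adjusted p = 0.199), and the higher of its wild-type values was the highest of all 24 libraries.

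IMA3 had 0 and 0 CPM in stop1 -Pi_pH6 and 0.0978 and 0.170 CPM (3 and 3 reads) in wild-type -Pi_pH6, and the groups did not overlap with the control of either genotype. Of all genes, 40.2% in stop1 and 29.1% in wild-type had no overlap in this comparison. The differences of IMA3 from the control were -1.43 in stop1 (unadjusted p = 0.0282, limma adjusted p = 0.473) and -1.38 in wild-type (unadjusted p = 0.0327, adjusted p = 0.851). In stop1 the likelihood ratio test (adjusted p = 0.00185) and DESeq2 (adjusted p = 0.00525) called IMA3, and edgeR's quasi-likelihood test did not (adjusted p = 0.139). Without the 5 libraries high in leaf markers the limma difference of IMA3 in stop1 was -0.27 (adjusted p = 1).

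None of the 6 genes was called by limma in the remaining comparisons of Pi and pH. Of these, -Pi_pH5 against the control changes Pi and pH at once, and their effects cannot be told apart there. Backgrounds here and in the next paragraph are shares of genes at an adjusted p under 0.05. They are no reference for counts at an unadjusted p, for which the share of all genes is not given. In stop1 the background was 0.0782% for +Pi_pH5 against the control, with 0 members at an unadjusted p under 0.05 in all 4 tools, and 1.6% for -Pi_pH5 against the control, with 3 such members in each tool. Of these, BTSL1 differed by -0.53 (adjusted p = 0.187) and BTSL2 by -0.44 (adjusted p = 0.3), and the likelihood ratio test called IMA3, which had 2 and 1 reads in stop1 -Pi_pH5. In wild-type the background was 0.166% for -Pi_pH6 against the control, 0.0293% for +Pi_pH5 against the control and 1.44% for -Pi_pH5 against the control, and 1 member had an unadjusted p under 0.05 in limma in each. edgeR's quasi-likelihood test gave 1, 0 and 1 such members, and edgeR's likelihood ratio test and DESeq2 called 0, 0 and 1. The member called by those was BTSL1 in -Pi_pH5, whose limma difference was -0.64 ± 0.18 (adjusted p = 0.104) and whose libraries (117 and 96.4 CPM) were below those of the control. Of all genes, 45.4% had no overlap in that comparison.

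Between -Pi_pH5 and +Pi_pH5, at the same pH, the background was 0.088% in stop1 and 0.0831% in wild-type, and 1 and 2 members had an unadjusted p under 0.05 in limma and in each of the other 3 tests, which called 0 as well. BTSL1 was among them in both genotypes, with -0.44 ± 0.18 (limma adjusted p = 0.595) in stop1 and -0.62 ± 0.18 (adjusted p = 0.598) in wild-type. Between -Pi_pH5 and -Pi_pH6, without Pi, the background was 1.71% in stop1 and 0.499% in wild-type, and 1 and 2 members had an unadjusted p under 0.05 in all 4 tests, with 0 called. Between stop1 and wild-type no member was called in -Pi_pH5 (background 0.587%), +Pi_pH5 (background 0.406%) or +Pi_pH6 (background 0.191%), nor by the other 3 tests. limma gave 0, 1 and 0 members at an unadjusted p under 0.05 there, edgeR's quasi-likelihood test and DESeq2 0 in each, and the likelihood ratio test 0, 1 and 0.

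IMA1 and IMA2 had their highest means at pH 5 in wild-type, where they reached 5.75 ± 0.383 and 7.70 ± 0.463 CPM in +Pi_pH5 (SD, n = 2), against 2.98 ± 0.906 and 4.13 ± 2.38 CPM in the control. The differences were 0.78 ± 0.36 for IMA1 (limma adjusted p = 0.75) and 0.84 ± 0.41 for IMA2 (adjusted p = 0.806) and did not pass the test. In the order of the 12 conditions, the 9 highest means of IMA2, down to 3.55 ± 1.02 CPM in wild-type -Pi_pH6, each overlapped the next in their libraries. Below them and apart stood stop1 +Al at 1.29 ± 0.383 and stop1 ++Fe at 0.769 ± 0.453 CPM, which overlapped each other, and then wild-type ++Fe at 0.164 ± 0.0357 CPM. For IMA1 the same 3 conditions were lowest, at 1.25 ± 0.216, 0.442 ± 0.00898 and 0.211 ± 0.0299 CPM. The stop1 +Al libraries of IMA1 overlapped those of wild-type -Pi_pH6 (3.16 and 1.3 CPM), and both ++Fe conditions were apart from all others.

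For BTSL1 the 5 highest means, between 165 ± 2.08 CPM in wild-type +Pi_pH6 and 139 ± 6.01 CPM in stop1 +Pi_pH5, each overlapped the next. Below them came -Pi_pH5 at 103 ± 14.9 CPM in stop1 and 107 ± 14.3 CPM in wild-type, which overlapped, stop1 -Pi_pH6 at 74.7 ± 14.3 CPM, wild-type +Al at 56.7 ± 3.86 CPM, stop1 +Al at 24.1 ± 2.88 CPM, and ++Fe at 20.9 ± 1.36 CPM in stop1 and 19.0 ± 4.97 CPM in wild-type, which overlapped. The lower stop1 +Al library (22.1 CPM) was only just above the higher stop1 ++Fe library (21.8 CPM). BTS had a far shorter range, between 70.2 ± 8.02 CPM in wild-type -Pi_pH5 and 31.7 ± 0.598 CPM in stop1 ++Fe, and each of its conditions overlapped the next in order. BTSL2 ranged between 67.3 ± 20.1 CPM in wild-type -Pi_pH6 and 32.8 ± 7.64 CPM in wild-type ++Fe, with the ++Fe libraries of both genotypes below most others.

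IMA1 and IMA2 kept a like ratio to each other. Outside ++Fe, the level of IMA2 per exon length was 0.677 to 2.03 times that of IMA1, with a median of 1.25, and it was above 1 in 17 of 20 libraries. The pair is followed downstream by AT1G07367, a further IMA locus (IMA4) annotated as a long noncoding RNA, 2503 bases beyond IMA1. It lies in a stretch of 10029 bases (chr1:17382998-17393026) with 5 loci. Of these, AT1G09505 (IMA5) and AT1G07373 (IMA6) were not among the 20450 genes with deposited values. AT1G07367 had 0 reads in all 4 ++Fe libraries. Against a floor of 3 reads per library it was at least 11.2-fold lower than its control mean of 1.67 CPM in stop1 and at least 11.4-fold lower than that of 1.61 CPM in wild-type. The control libraries behind these means had 3.03 and 0.308 CPM (55 and 6 reads) in stop1 and 2.19 and 1.02 CPM (43 and 20 reads) in wild-type, replicate 1 of each being high in leaf markers. Without replicate 1 the bounds were 2.06-fold in stop1 and 7.24-fold in wild-type. On the log2(CPM + 1) scale the stop1 difference was -1.20 and was not called (limma adjusted p = 0.0638), and the wild-type difference was -1.34 (adjusted p = 0.0288). The locus was also low in +Al, with 0.275 and 0 CPM in stop1 and 0.557 and 0.27 CPM in wild-type.

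IMA3 had its highest levels in libraries high in leaf markers. In the 5 libraries high in leaf markers it had 0.687 to 5.01 CPM with a median of 3.57 (12 to 109 reads), and in the other 19 it had 0 to 1.19 CPM with a median of 0.205 (0 to 22 reads). It had 439 reads over all 24 libraries, 0 reads in 2 of them, and both of these were stop1 -Pi_pH6. The correlation of its log2(CPM + 1) with the log2 summed leaf markers was 0.739 over the 24 libraries, which share media and genotypes, and 0.849 within conditions. For the ligases the same correlations were 0.082 (BTS), 0.160 (BTSL1) and 0.124 (BTSL2), and for IMA1 and IMA2 0.257 and 0.200, or 0.526 and 0.421 within conditions. In 7 of the 12 conditions the replicate with more leaf markers also had more IMA3, against 7 for BTS and 8 for IMA2. The part of leaf RNA in the IMA3 levels was not tested. AT2G30770, which overlaps 16.5% of the IMA3 exons on the opposite strand, had 10.7 and 17.4 CPM in stop1 ++Fe, 45.6 and 10.6 CPM in wild-type ++Fe, 39.5 and 21.0 CPM in stop1 +Al and 5.91 and 10.07 CPM in wild-type +Al, and 0 to 0.330 CPM in the other 16 libraries. The strand setting of the counting is not given in the sources used here, so the reads of the overlapping part cannot be told apart.

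**Figure D3:**
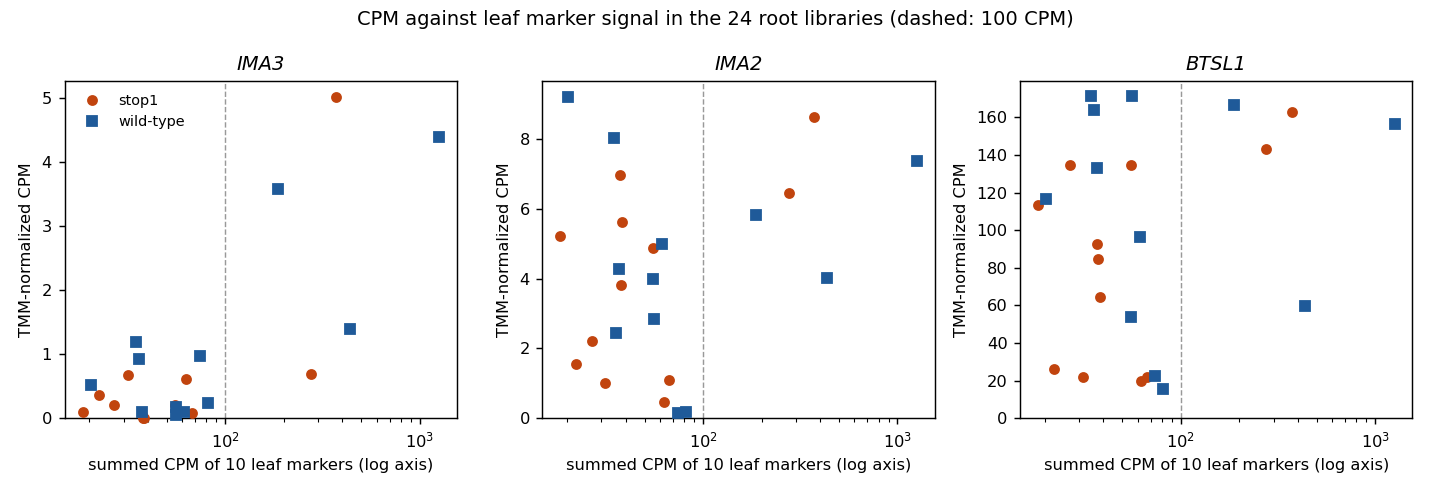
CPM of IMA3, IMA2 and BTSL1 (y axes) in each of the 24 libraries against the summed CPM of 10 leaf markers (x axis, log scale), with a dashed line at 100 CPM. The IMA3 points above 3 CPM lie to the right of the line, while IMA2 and BTSL1 show both low and high points to its left.

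Genes on which the ligases and peptides act were described by lists chosen with earlier results of these data known. Of 5 bHLH factors, which are the subgroup IVc targets of the ligases and their partner bHLH121, 2 were lower in ++Fe than in the control in each genotype, and 1 was higher in wild-type, with a median log2 difference of 0.01 in stop1 and 0.02 in wild-type. The lower ones were bHLH34 (-0.39 in stop1, limma adjusted p = 0.0234, and -0.41 in wild-type, adjusted p = 0.0133) and bHLH115 (-0.44, adjusted p = 0.0168, and -0.61, adjusted p = 0.00136). Of 9 regulators downstream of them, including FIT and the subgroup Ib factors, 8 were lower and none higher in each genotype, with a median of -2.59 in stop1 and -2.53 in wild-type. bHLH100, a subgroup Ib factor, differed by -3.91 in stop1 (adjusted p = 6.82e-07) and -4.0 in wild-type (adjusted p = 4.28e-07), and MYB10, a MYB factor of the iron deficiency response, by -2.59 (adjusted p = 2.25e-05) and -2.53 (adjusted p = 2.36e-05). Over all genes the median was -0.03 in stop1 and -0.01 in wild-type, 5.59% were lower and 9.16% higher in stop1, and 9.38% were lower and 12.3% higher in wild-type.

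Of 21 genes of iron uptake and distribution, 18 were lower and 0 higher in stop1 ++Fe, and 13 were lower and 1 higher in wild-type ++Fe, against the control. IRT1, the root iron transporter, had 0.523 and 0.224 CPM in stop1 ++Fe and 0.649 and 0.332 CPM in wild-type ++Fe, against 857 and 573 CPM in stop1 +Pi_pH6 and 678 and 466 CPM in wild-type +Pi_pH6. Of 7 iron storage genes, 2 were lower in each genotype, namely the vacuolar iron transporter-like genes VTL1 (-1.80 in stop1, -1.69 in wild-type) and VTL2 (-1.24 in stop1, -1.75 in wild-type), and 1 was higher in wild-type.

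In +Al against -Pi_pH5, 5 of the 9 downstream regulators were lower in stop1 (median -1.06) and 1 in wild-type (median -0.18). Of the uptake and distribution genes 9 were lower and 2 higher in stop1, and 3 lower and 1 higher in wild-type. Of all genes, 15.6% were lower and 15.4% higher in stop1, and 1.37% lower and 2.63% higher in wild-type. IRT1 had 4.91 and 0.582 CPM in stop1 +Al and 24.8 and 29.6 CPM in wild-type +Al, against 369 and 113 CPM in stop1 -Pi_pH5 and 130 and 76.2 CPM in wild-type -Pi_pH5. Its response differed between genotypes by -4.22 (limma adjusted p = 0.00168), and that of FRO2, the ferric reductase, by -3.78 (adjusted p = 0.000865), in the direction of BTSL1. Between stop1 and wild-type within +Al, 3 of the 9 downstream regulators and 9 of the 21 uptake genes were lower, and 2 of the 7 storage genes were higher, where 8.92% of all genes were lower and 11.2% higher.

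Likeness of pattern was measured as Pearson's r of log2(CPM + 1) over the 24 libraries among 19389 genes whose mean was 1 CPM or higher, leaving the 6 genes themselves out. The 3 genes closest to BTSL1 were IRT1 (r = 0.983), AT5G05250 (0.962) and AT5G03330 (0.959). Those closest to IMA1 were RLP56 (0.890), bHLH39 (0.887), a subgroup Ib factor of the iron response, and AT5G05250 (0.885), and those closest to IMA2 were AT5G05250 (0.905), bHLH39 (0.900) and AT3G56360 (0.881). For BTS they were XRN3 (0.938), RHD3 (0.934) and MOS1 (0.933), for BTSL2 AT5G45510 (0.937), AT5G52882 (0.924) and FAB1C (0.919), and for IMA3 OEP6 (0.855), ESM1 (0.843) and PMDH2 (0.812). AT5G05250 was thus among the closest genes of BTSL1, IMA1 and IMA2, and bHLH39 of both peptide genes.

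Among the members, r was 0.966 between IMA1 and IMA2, 0.882 between BTSL1 and BTSL2, 0.824 between BTSL1 and IMA2, 0.786 between BTSL1 and IMA1 and 0.776 between BTS and BTSL2. IMA3 had an r of 0.19 to 0.32 with the other members. In the 19 libraries that are low in leaf markers it had -0.275 to 0.052. The libraries share 6 media and 2 genotypes, so these values describe the 12 conditions more than independent samples.

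**Figure D4:**
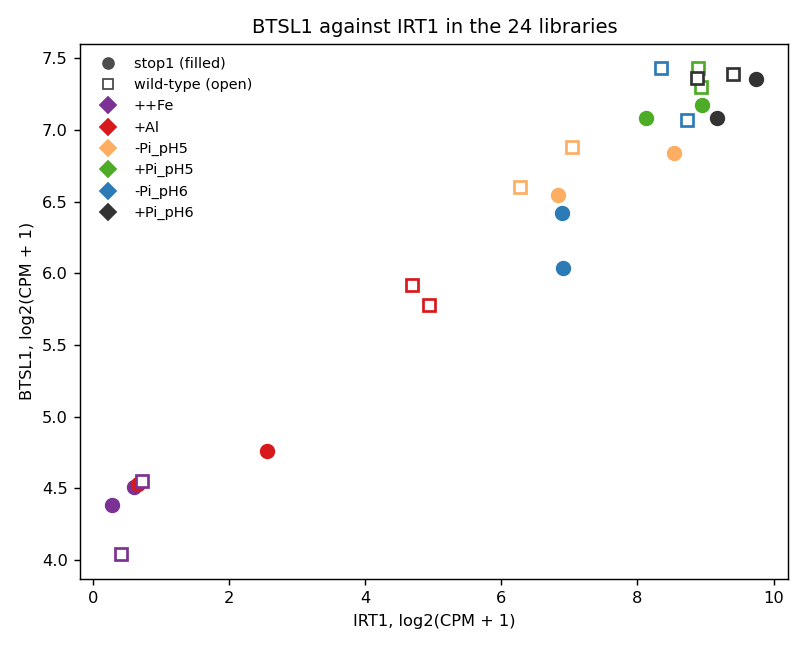
BTSL1 (y axis) against IRT1 (x axis), both in log2(CPM + 1), in the 24 libraries with stop1 as circles and wild-type as squares and a colour for each medium. The ++Fe libraries of both genotypes and the stop1 +Al libraries lie at the lower left, the wild-type +Al libraries between, and the r over the 24 libraries is 0.983.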

How the data were processed

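Root RNA-seq libraries (strand-specific mRNA libraries, paired-end reads) were assigned to 12 conditions of genotype and medium, with 2 replicates each, from the deposited labels. The authors checked reads with FastQC 0.11.9, trimmed adapters with Trimmomatic, aligned reads with HISAT2 2.1.0 to TAIR10, counted them on genes with HTSeq 0.11.2 and scaled them with edgeR 3.28.0. As deposited, the values are a normalized signal in CPM after TMM scaling. Dividing each by the value of 1 read gave whole reads for 100% of them (tolerance 0.01, largest distance 0.000106). Of the 20450 genes, 20437 exceed 1 CPM in 2 or more libraries. How genes were filtered and which strand option the counting used is not given in the sources used here. Columns of values left unused numbered 0. Reads on genes ranged from 17027929 to 30516150 per library, and intervals and floors (3 reads per library) cover counting error only.

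Differences were tested two-sided on log2(CPM + 1) in R 4.3.3. limma 3.58.1 was fitted to all 24 libraries with 1 coefficient per condition and the trend option of eBayes, and p-values were adjusted by Benjamini-Hochberg over all 20450 genes. The p-values rest on 1 estimate of the spread for each gene, shared by all conditions, and not on the spread of the compared libraries alone. This shared spread is that between 2 pooled samples per condition. The authors' comparisons with edgeR's likelihood ratio test were not used. Alternatives were edgeR 4.0.16 and DESeq2 1.42.0 on recovered reads, a pseudocount of 0.1, a minimum mean CPM of 1, scaling by library size only or by RLE, a fit of only the libraries compared, the replicate block, leaving out each library, and exchanged stop1 labels. Leaving out the 5 libraries whose summed leaf markers exceed 100 CPM, the leaf marker covariate and the bound of AT1G07367 without control replicate 1 were chosen after seeing the data. The statistics were tested on simulated data. Named genes were the 6 members, the 3 genes closest in pattern to each, the 2 genes of each list with the smallest p in wild-type ++Fe against +Pi_pH6, and STOP1. FRO2 belongs to this rule, and AT1G07367, the overlapping genes and the list counts were added for context. The members and lists were chosen with earlier results of these data known. Annotation and sequences are from RefSeq TAIR10.1 (20414 of 20450 genes found), read with Biopython 1.88 in Python 3.11.15.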

Additional observations from a re-analysis of the deposited data

Results flagged for a closer look

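BTSL1 was called for a different response to Al in the genotypes by the test of the difference itself. The response of stop1 minus that of wild-type was -1.15 on the log2(CPM + 1) scale against -Pi_pH5 (limma adjusted p = 0.0092) and -1.04 against +Pi_pH6 (adjusted p = 0.0141). BTSL1 had 26.2 and 22.1 CPM in stop1 +Al and 59.4 and 54.0 CPM in wild-type +Al. Both stop1 libraries were below both wild-type libraries, and 58.8% of all genes had no overlap there. Without the 5 libraries high in leaf markers the difference was -1.09 against -Pi_pH5 and -0.85 against +Pi_pH6, and neither was called. Without any one of the 8 libraries in turn, the first was -1.30 to -1.01 (adjusted p between 0.0108 and 0.0572) and the second -1.18 to -0.91 (adjusted p between 0.0167 and 0.0715).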

How the results depend on the processing

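The 6 genes had 43 called differences, none of which reversed in 668 recomputed values, and 600 kept the call. All 43 held with edgeR's quasi-likelihood test, its likelihood ratio test, DESeq2, a pseudocount of 0.1, a minimum mean CPM of 1, both other scalings and the replicate block. Only the libraries compared kept 36 of 43, leaving out the 5 libraries high in leaf markers 31 of 43, the leaf marker covariate 41 of 43, the exchanged stop1 labels 14 of 15, and leaving out 1 library at a time 134 of 180. The causes were not tested, though the fits with fewer libraries also have fewer degrees of freedom.

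The number of members called in -Pi_pH5 against +Pi_pH6 in wild-type was 0, and 1 with the likelihood ratio test, DESeq2 or the replicate block. In stop1 the likelihood ratio test called 1 (0 by limma) in -Pi_pH5 against +Pi_pH6. The likelihood ratio test and DESeq2 called 2 (1 by limma) in -Pi_pH6 against +Pi_pH6 in stop1, between stop1 and wild-type in -Pi_pH6, and for the difference of the +Al response against +Pi_pH6 between genotypes, and both called 3 (2 by limma) between genotypes in +Al, where IMA2 was added. Only the libraries compared gave 2 (against 4) in +Al against +Pi_pH6 in stop1, 0 (against 1) in +Al against -Pi_pH5 in wild-type and 0 (against 1) between genotypes in -Pi_pH6. Without the 5 libraries high in leaf markers the counts were 2 in ++Fe and 1 in +Al against +Pi_pH6 in stop1 (4 and 4 with them), 0 in -Pi_pH6 against +Pi_pH6 in stop1, 1 between genotypes in +Al (2 with them, and 1 with the covariate), 0 between genotypes in -Pi_pH6, and 0 for both differences of the +Al response.

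Leaving out 1 library at a time, members called in ++Fe against +Pi_pH6 were 2 to 5 in stop1 and 4 to 5 in wild-type, against +Pi_pH5 3 to 4 in stop1, and against -Pi_pH5 2 to 3 in stop1 and 4 to 5 in wild-type. They were 2 to 4 in +Al against +Pi_pH6 in stop1, 1 to 2 (stop1) and 0 to 1 (wild-type) against -Pi_pH5, and 0 to 2 in -Pi_pH6 against +Pi_pH6 in stop1. Between genotypes they were 1 to 2 in +Al and 0 to 3 in -Pi_pH6, and for the difference of the +Al response 0 to 1 against -Pi_pH5 and 0 to 3 against +Pi_pH6. The share of all genes called is not given for these fits, nor for most of the alternatives above. A lower count therefore cannot be read as particular to the members.

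Over all genes, 4444 were called in ++Fe against +Pi_pH6 in wild-type, 1650 with only the libraries compared and 2924 without the 5 libraries, and 1731 in +Al against +Pi_pH6 in wild-type, 254 with only the libraries compared. Between genotypes in -Pi_pH6 109 genes were called, 380 with the likelihood ratio test and 403 with DESeq2. No scaling moved the median of all genes by more than 0.073. Whether replicate numbers pair the samples was not settled. Deviations of equal numbers correlated by -0.384 to 0.503 over 66 pairs of conditions (median 0.119, 37 over 0.1). Depth limits IMA3 and, in ++Fe, IMA1 and IMA2.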
